A study of Mus musculus with 30 samples.

Results

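The hepatic response to 10 mg/kg perfluorooctane sulfonate (PFOS) was compared between wild-type (WT) and PPARα-null (Null) mice, gene by gene, as a difference between 2 differences. The comparison took 20 of the 30 arrays of the study by their labels alone, 5 from each of the groups WT 0, WT 10, Null 0 and Null 10 mg/kg. WT mice were of strain 129S1/SvlmJ and carried intact Ppara, whereas Null mice were of strain 129S4/SvJae-Pparatm1Gonz/J, a related but different substrain, so the effect of the targeted allele and that of the substrain cannot be told apart. All mice were males aged 6 to 9 months, dosed by gavage on 7 days with PFOS as the potassium salt or, in the 0 mg/kg groups, with its vehicle of 0.5% Tween 20. RNA came from the left lobe of the liver of 1 mouse per Affymetrix array, and in bulk tissue fewer cells of a type and less RNA per cell cannot be told apart.

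PPARα is a nuclear receptor of the hepatocyte that is activated by fatty acids and by peroxisome proliferators, pairs with RXR and switches on genes for the uptake, storage and oxidation of fatty acids. Its classical response element is a direct repeat of the half-site AGGTCA with 1 base between the repeats. PFOS is a perfluorinated acid that resembles a fatty acid in shape. The paper regards PFOS as a likely activator of the xenobiotic receptor CAR too, so a response that remains without PPARα is of interest in its own right.

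Throughout, the difference in response is the change from 0 to 10 mg/kg in Null mice minus the same change in WT mice, on the log2 scale of the deposited values, where 1 unit is a 2-fold difference. A negative value means that the gene rose less, or fell more, in Null mice than in WT mice. Differences were tested with limma on 24069 probe sets, which read 12156 genes by 1 probe set each, and a gene was called at a Benjamini-Hochberg adjusted p under 0.05 over all the probe sets. The arrays labelled WT 0 mg/kg replicates 4 and 5 read Ppara below every array labelled Null, so the differences were fitted with all 20 arrays and again with the 18 that remain without those 2. A value with no set named is from 20 arrays. The 2 arrays were singled out by a measured value, and the 18-array results are therefore no independent support for the 20-array results.

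The 250 bases before the transcription start are shown for genes at both ends of the comparison, from the RefSeq promoter table (GRCm38.p6). Mogat1 and Acot2 had the most negative differences, and Got1 the most positive, among genes called with both sets of arrays and present in that table. Fabp1 and F7 are the only genes called with both sets whose window held the direct repeat in the form searched, which leaves the T of each half-site free, and they were chosen after the matches were seen. Capitals mark matches to the half-site AGGTCA, the direct repeat, the antioxidant core TGACNNNGC or the sterol element TCACNCCAC, each searched on both strands, and matches can overlap, so that the direct repeats of Fabp1 and F7 each contain a half-site and the last match of Fabp1 is a half-site and an antioxidant core at once.
Mogat1, chr1:78510810-78511059, plus strand: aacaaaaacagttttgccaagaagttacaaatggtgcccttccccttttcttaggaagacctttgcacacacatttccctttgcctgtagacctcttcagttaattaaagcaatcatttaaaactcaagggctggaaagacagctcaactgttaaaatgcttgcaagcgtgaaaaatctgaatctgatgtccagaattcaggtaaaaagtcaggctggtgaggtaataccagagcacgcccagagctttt
Acot2, chr12:83987611-83987860, plus strand: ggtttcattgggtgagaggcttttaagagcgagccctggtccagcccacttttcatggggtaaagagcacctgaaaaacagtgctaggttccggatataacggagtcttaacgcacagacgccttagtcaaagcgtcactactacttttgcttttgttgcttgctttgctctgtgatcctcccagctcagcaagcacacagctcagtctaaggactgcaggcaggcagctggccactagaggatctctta
Got1, chr19:43524606-43524855, minus strand: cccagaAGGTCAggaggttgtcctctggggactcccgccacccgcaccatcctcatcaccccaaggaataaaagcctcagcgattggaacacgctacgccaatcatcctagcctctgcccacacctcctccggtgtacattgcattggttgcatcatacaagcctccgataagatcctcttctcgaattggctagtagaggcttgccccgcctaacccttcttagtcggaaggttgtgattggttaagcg
Fabp1, chr6:71199629-71199878, plus strand: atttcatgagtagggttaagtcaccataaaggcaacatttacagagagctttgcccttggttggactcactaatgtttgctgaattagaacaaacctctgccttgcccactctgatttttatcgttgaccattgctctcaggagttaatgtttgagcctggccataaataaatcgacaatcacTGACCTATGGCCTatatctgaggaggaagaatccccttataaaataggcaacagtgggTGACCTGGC
F7, chr8:13025784-13026033, plus strand: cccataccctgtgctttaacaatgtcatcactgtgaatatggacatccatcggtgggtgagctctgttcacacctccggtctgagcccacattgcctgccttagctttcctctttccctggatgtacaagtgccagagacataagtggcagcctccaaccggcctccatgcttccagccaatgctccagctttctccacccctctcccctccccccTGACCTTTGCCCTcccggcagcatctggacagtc

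The Mogat1 and Acot2 windows held none of these motifs, and the Got1 window held 1 half-site, which starts 244 bases before the transcription start. The direct repeat started 67 bases before the start of Fabp1 and 34 bases before that of F7, on the minus strand in both. Of 9811 tested genes present in the table, 0.398% held the direct repeat, 14.0% the half-site, 14.0% the antioxidant core and 1.33% the sterol element. Among the 184 present that both sets called more negative in Null, 1 (0.543%), 30 (16.3%), 26 (14.1%) and 2 (1.09%) did, in that order. Among the 26 present that both sets called more positive in Null, 1 (3.85%), 8 (30.8%), 3 (11.5%) and 3 (11.5%) did. A match is a description of the letters, and a window without one leaves elements elsewhere unread.

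The genotype labels were read first against Ppara itself. Its probe set of highest mean gave log2 values of 10.79, 10.66, 10.53, 8.99 and 9.07 in WT 0 mg/kg replicates 1 to 5, and of 10.57, 10.35, 10.90, 10.16 and 10.19 in the WT 10 mg/kg arrays. The Null arrays gave 10.26, 9.83, 9.78, 10.21 and 10.02 at 0 mg/kg and 9.76, 9.67, 10.11, 9.82 and 9.35 at 10 mg/kg. WT replicates 4 and 5 at 0 mg/kg thus lay below all 10 Null arrays, while the other 3 lay above them all. Whether this probe set reads the part of the gene that the allele alters is not given in the sources used here, so it is a weak check of the labels. Whether the 2 arrays carry the labels of the mice they came from was not tested, and each 20-array value takes those labels as given. The Ppara difference in response was -0.70 ± 0.41 (SE, adjusted p = 0.45) with 20 arrays and -0.05 ± 0.23 (adjusted p = 0.94) with 18.

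Cyp2b10, the classical CAR target, also set the same pair apart. Its values in WT mice at 0 mg/kg were 8.43, 8.11, 8.28, 13.04 and 12.99, whereas the 5 WT arrays at 10 mg/kg lay between 12.37 and 12.97. In Null mice it read 8.75, 8.43, 8.01, 9.05 and 7.01 at 0 mg/kg and 13.04, 13.37, 12.02, 12.03 and 12.98 at 10 mg/kg. Replicates 4 and 5 were thus at the level of dosed animals, and the difference in response moved from 2.01 ± 1.13 (adjusted p = 0.43) to 0.11 ± 0.48 (adjusted p = 0.94) when they were left out. Without them Cyp2b10 rose by 4.33 ± 0.37 in WT and by 4.44 ± 0.32 in Null (adjusted p = 7.4e-07 and 5.6e-07).

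With 20 arrays, 351 of 12156 genes (2.89%) differed in response between the genotypes. Of these, 299 (2.46%) were more negative in Null and 52 (0.428%) more positive. With 18 arrays 435 genes differed (3.58%), of which 341 (2.81%) were more negative and 94 (0.773%) more positive. Both sets called 254 genes, 220 more negative and 34 more positive, while 97 were called with 20 arrays only and 181 with 18 only, and no gene called with either set changed sign. The count depended on single arrays, since it was 169, 186 and 189 without Null 0 mg/kg replicates 2, 3 and 4, 663, 205 and 228 without Null 10 mg/kg replicates 1, 3 and 5, and 163 and 220 without WT 10 mg/kg replicates 2 and 5. From 18 arrays it was 235, 240 and 247 without Null 0 mg/kg replicates 2, 3 and 4, 1040 and 240 without Null 10 mg/kg replicates 1 and 3, 131, 252 and 150 without WT 0 mg/kg replicates 1, 2 and 3, and 276, 237 and 259 without WT 10 mg/kg replicates 1, 2 and 5. The called genes include 150 that passed in each of the 20 fits with 1 array left out, 139 more negative and 11 more positive.

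**Figure D1:**
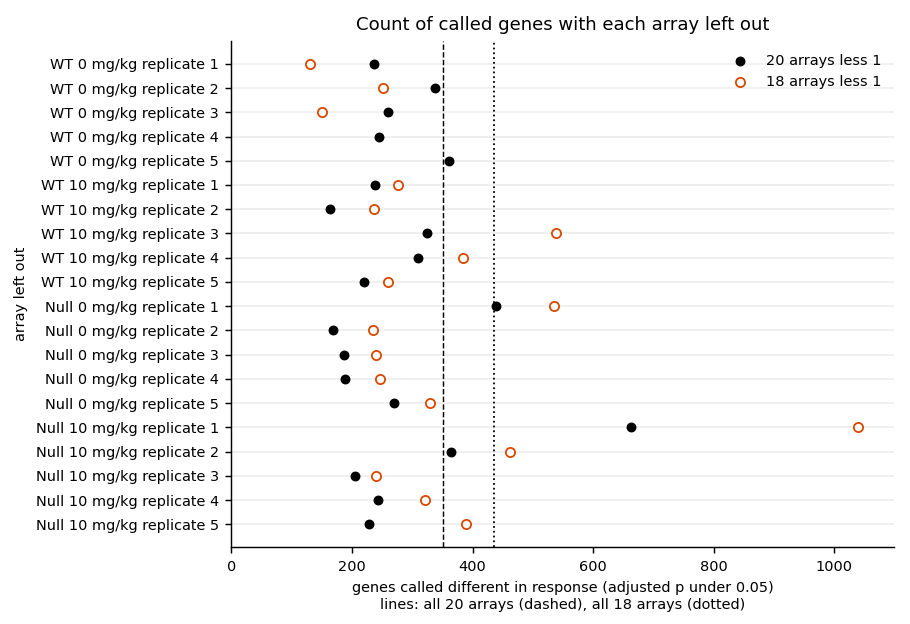
Number of genes whose response differed between genotypes (x axis, limma with Benjamini-Hochberg adjusted p under 0.05) when the array named on the y axis was left out. Filled points start from 20 arrays and open points from 18, dashed and dotted lines mark 351 and 435, and leaving out Null 10 mg/kg replicate 1 gave the highest counts, 663 and 1040.

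Most genes more negative in Null had changes of opposite sign in the 2 genotypes. Their median change was 0.25 in WT and -0.28 in Null, and 237 of the 299 had a WT change above 0 with a Null change below 0, against 2135 of all 12156 genes. Selection for a negative difference favours such opposite signs, so this count describes the called genes and tests nothing. In the same fit, 134 of the 299 passed as higher in WT after dosing and 151 passed as lower in Null, 15 passed in both genotypes, and 26 passed in neither alone. Over all genes 673 (5.54%) were higher and 339 (2.79%) lower in dosed WT mice, and 333 (2.74%) were higher and 511 (4.20%) lower in dosed Null mice. These component counts rest on the arrays of the difference itself and so describe it without testing it anew. Without the 2 arrays, 232 of the 341 genes more negative in Null passed as higher in WT and 107 as lower in Null. Over all genes 1278 were then higher and 1104 lower in dosed WT mice, and 524 were higher and 607 lower in dosed Null mice.

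The dosed groups stood apart for a smaller share. All 5 WT 10 mg/kg arrays lay above the other 15 for 101 of the 299 genes, against 2.26% of all genes, and all 5 Null 10 mg/kg arrays lay below the other 15 for 30, against 0.346%. Of the 52 genes more positive in Null, the WT 10 mg/kg arrays lay below the other 15 for 13, against 0.905% of all genes. The gap between genotypes was wider at 10 than at 0 mg/kg for 301 of the 351 genes, and for 329 of the 435 with 18 arrays, against 7234 and 6938 of all 12156 genes. Selection for a difference in response favours a wider gap, so these counts describe the called genes and test nothing.

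**Figure D2:**
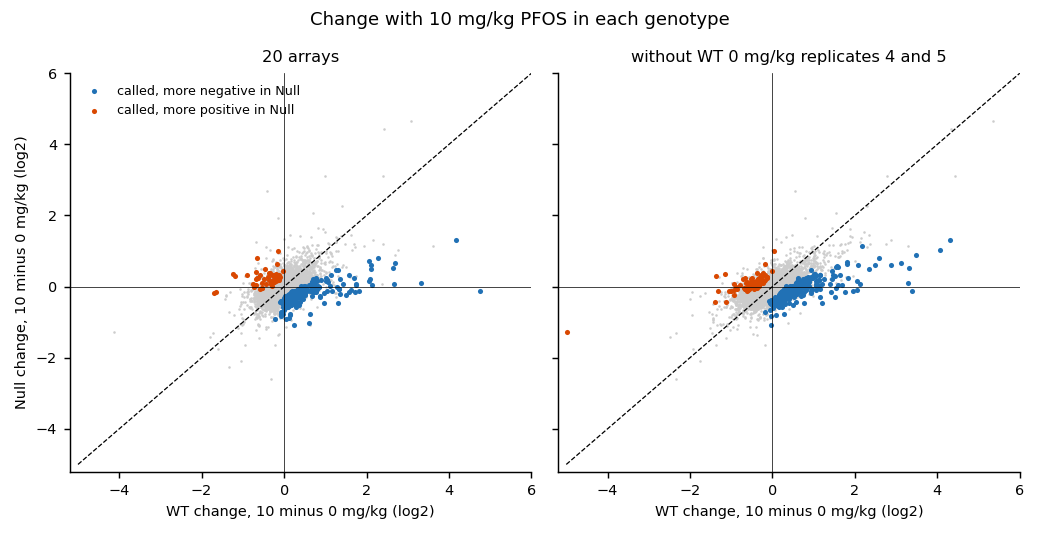
Change from 0 to 10 mg/kg in WT (x axis) and Null mice (y axis), both in log2 units, for 12156 genes, with 20 arrays on the left and 18 on the right. Coloured points are called genes, the dashed line marks equal change, and most of the 299 genes more negative in Null lie to the right of 0 and below the line.

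Vnn1 encodes pantetheinase, a well-known PPARα target, and it had the most negative difference of all called genes. It read 7.80, 7.48, 7.26, 4.19 and 4.01 in WT mice at 0 mg/kg and 11.44, 10.97, 11.57, 9.98 and 10.55 at 10 mg/kg. The Null arrays gave 4.55, 4.43, 4.31, 6.31 and 4.25 at 0 mg/kg and 4.04, 5.97, 4.02, 4.31 and 4.82 at 10 mg/kg. The 5 dosed WT arrays stood above all others, the dosed and control Null arrays overlapped, and WT 0 mg/kg replicates 4 and 5 lay at the Null level. The difference was -4.89 ± 0.94 (adjusted p = 0.0083) with 20 arrays and -3.52 ± 0.63 (adjusted p = 0.0091) with 18. Most Null arrays and WT 0 mg/kg replicates 4 and 5 lay below 5.65, the limit of the filter on weak probe sets. A change among these weak arrays cannot be read, and the size of the difference depends on where weak signals end.

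Mogat1, a monoacylglycerol acyltransferase that makes diacylglycerol, was high in dosed WT mice alone. The WT arrays gave 5.44, 5.18, 5.34, 4.84 and 5.53 at 0 mg/kg and 9.04, 9.21, 7.86, 8.02 and 8.86 at 10 mg/kg. The Null arrays gave 4.66, 5.09, 4.83, 5.33 and 4.67 at 0 mg/kg and 5.07, 4.94, 4.93, 4.74 and 5.36 at 10 mg/kg. The other 15 arrays all lay below 5.65, the limit of the filter on weak probe sets, so Mogat1 was retained through its dosed WT arrays and a change among the weak arrays cannot be read. On the deposited scale the difference was -3.24 ± 0.32 (adjusted p = 1.9e-05) with 20 arrays and -3.18 ± 0.34 (adjusted p = 8.6e-05) with 18, and its size depends on where weak signals end.

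Cyp4a31, a member of the fatty acid omega-hydroxylase family, rose in both genotypes, but by less in Null mice. It read 8.12, 7.78, 7.17, 7.98 and 8.11 in WT mice at 0 mg/kg and 11.96, 11.92, 12.42, 11.80 and 11.87 at 10 mg/kg. Null values were 5.69, 6.13, 5.72, 7.85 and 6.02 at 0 mg/kg and 7.82, 7.60, 7.16, 7.54 and 7.88 at 10 mg/kg. The dosed Null arrays lay at the level of undosed WT arrays, as did 1 undosed Null array, replicate 4. The rise was 4.16 ± 0.30 in WT (adjusted p = 6.8e-08) and 1.32 ± 0.30 in Null (adjusted p = 0.013), and the difference was -2.84 ± 0.43 (adjusted p = 0.0017), or -2.99 ± 0.48 (adjusted p = 0.0037) with 18 arrays. Its relative Cyp4a14 had a difference of similar size, -2.47 ± 1.39, that did not pass (adjusted p = 0.43), nor did the -2.14 with 18 arrays (adjusted p = 0.52).

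Among peroxisomal genes, Pex11a, which drives the division of peroxisomes, gave a smaller p with 20 arrays than any other gene named here. Its WT values were 10.50, 10.48, 10.23, 10.00 and 10.00 at 0 mg/kg and 11.75, 12.04, 11.96, 11.63 and 11.75 at 10 mg/kg. Its Null values were 9.79, 10.04, 9.84, 9.99 and 9.73 at 0 mg/kg and 9.77, 9.96, 9.62, 9.58 and 9.68 at 10 mg/kg. Dosed WT arrays lay more than 1 log2 unit above every other array, and the Null groups overlapped. The difference was -1.74 ± 0.16 (adjusted p = 7.5e-06), or -1.58 ± 0.15 (adjusted p = 2.3e-05) with 18 arrays. By limma none of the other 16 measured genes of peroxisome biogenesis was called with either set, while 3 of the list with 20 arrays and 5 with 18, Pex11a included, had an unadjusted p under 0.05. Over all 12156 genes, 1932 with 20 arrays and 2328 with 18 had such a p.

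Ehhadh, the peroxisomal bifunctional enzyme of beta-oxidation, read 11.10, 11.41, 10.99, 12.00 and 12.17 in WT mice at 0 mg/kg and 13.66, 13.67, 13.71, 13.58 and 13.64 at 10 mg/kg. Its values in Null mice were 11.24, 11.51, 11.18, 11.53 and 10.99 at 0 mg/kg and 12.19, 12.14, 11.66, 11.33 and 12.14 at 10 mg/kg. Dosed WT arrays formed a tight group above the rest, and WT 0 mg/kg replicates 4 and 5 were the highest of the undosed arrays. The difference was -1.51 ± 0.28 (adjusted p = 0.0075) with 20 arrays and -1.88 ± 0.23 (adjusted p = 4.0e-04) with 18, a set in which the Null rise of 0.60 ± 0.15 also passed (adjusted p = 0.017). Of 19 peroxisomal beta-oxidation genes, 5 were called more negative in Null with either set, with Acot8, Amacr, Decr2 and Ehhadh in both, and none more positive, against 2.46% and 2.81% of all genes. The 5 became 3 without Null 0 mg/kg replicate 2, and with 18 arrays 3 without WT 0 mg/kg replicate 3. Of the 20 fits with 1 array left out, Amacr passed in 4 and Decr2 in 6.

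In mitochondrial beta-oxidation, 4 of 24 genes were called more negative with 20 arrays, namely Decr1, Eci1, Hadha and Hadhb, and 3 with 18, from which Eci1 was missing (adjusted p = 0.082), against 2.46% and 2.81% of all genes. Eci1 passed in 6 of the 20 fits with 1 array left out, and the 3 became 1 without WT 0 mg/kg replicate 1. Decr1 reduces the intermediates of unsaturated fatty acids, and it read 11.42, 11.61, 11.37, 11.59 and 11.76 in WT mice at 0 mg/kg and 12.56, 12.69, 12.57, 12.56 and 12.61 at 10 mg/kg. Null mice gave values of 11.24, 11.31, 11.24, 11.49 and 11.31 at 0 mg/kg and 11.46, 11.69, 11.37, 11.28 and 11.68 at 10 mg/kg. Only the dosed WT arrays were clear of the other groups, and the difference was -0.87 ± 0.12 (adjusted p = 9.0e-04), or -0.95 ± 0.13 (adjusted p = 7.7e-04) with 18 arrays. Hadha and Hadhb, the subunits of the trifunctional protein, had differences of -0.69 ± 0.12 (adjusted p = 0.0055) and -0.54 ± 0.10 (adjusted p = 0.0074), or -0.62 and -0.46 (adjusted p = 0.017 and 0.021) with 18 arrays.

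The acyl-CoA thioesterases, which split acyl-CoA into free fatty acid and CoA, gave 3 calls with the 2 doubted arrays and 7 without. Of 12 measured, Acot2, Acot8 and Acot13 were called with 20 arrays, and Acot1, Acot3, Acot4 and Acot6 were added with 18. All were more negative in Null, against 2.46% and 2.81% of all genes. Acot2, the mitochondrial form, read 7.92, 8.09, 8.08, 9.75 and 9.67 in WT mice at 0 mg/kg and 11.25, 11.55, 11.40, 11.20 and 11.35 at 10 mg/kg. In Null mice it read 8.68, 8.86, 8.85, 8.78 and 8.89 at 0 mg/kg and 9.65, 9.42, 9.02, 9.01 and 9.52 at 10 mg/kg. Replicates 4 and 5 lay above every dosed Null array, and the difference moved from -2.14 ± 0.40 (adjusted p = 0.0074) to -2.81 ± 0.17 (adjusted p = 7.0e-08) without them.

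Acot1, the cytosolic form, showed this most plainly. In WT mice it read 6.90, 7.85, 5.96, 10.11 and 10.23 at 0 mg/kg and 10.65, 11.15, 11.34, 10.79 and 10.96 at 10 mg/kg. The Null arrays gave 9.34, 9.38, 8.75, 8.98 and 9.23 at 0 mg/kg and 10.59, 10.40, 9.98, 9.61 and 10.18 at 10 mg/kg. Replicates 4 and 5 fell in the range of the dosed Null arrays, and the difference was -1.75 ± 0.80 (adjusted p = 0.30) with them and -3.06 ± 0.40 (adjusted p = 6.4e-04) without. Acot1 and Acot2, like the members of the Cyp4a family, are close paralogs, and binding of one transcript to the probes of another was not tested.

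Among 20 genes of lipid droplets and fatty acid uptake, 6 were called more negative with 20 arrays (Cd36, Fabp1, Fabp2, Mgll, Plin2 and Pnpla2) and 5 with 18, from which Fabp2 was missing (adjusted p = 0.072), against 2.46% and 2.81% of all genes. The 6 became 4 without Null 0 mg/kg replicate 2, and the 5 became 2 without WT 0 mg/kg replicate 3. Cd36, a fatty acid translocase of the cell surface, read 7.86, 7.77, 8.48, 8.74 and 8.89 in WT mice at 0 mg/kg and 10.72, 10.72, 10.85, 10.28 and 10.61 at 10 mg/kg. Null values were 8.41, 8.73, 8.34, 8.22 and 8.15 at 0 mg/kg and 9.50, 9.07, 9.14, 9.43 and 8.74 at 10 mg/kg. It rose in both genotypes with no overlap between dosed and control arrays within either, and the rise was 2.29 ± 0.19 in WT against 0.81 ± 0.19 in Null. The difference was -1.48 ± 0.28 (adjusted p = 0.0074), or -1.79 ± 0.24 (adjusted p = 9.7e-04) with 18 arrays.

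Mgll, the lipase that clears monoacylglycerol, was called in both genotypes and in opposite directions. It read 11.17, 11.19, 10.95, 10.60 and 10.68 in WT mice at 0 mg/kg and 11.87, 12.01, 12.10, 11.69 and 11.73 at 10 mg/kg. Its values in Null mice were 10.78, 10.98, 11.17, 11.03 and 11.26 at 0 mg/kg and 10.60, 10.79, 10.50, 10.43 and 10.56 at 10 mg/kg. WT values rose by 0.96 ± 0.12 (adjusted p = 4.5e-05) with no overlap, and Null values fell by 0.47 ± 0.12 (adjusted p = 0.025) with an overlap of 1 array. The difference was -1.43 ± 0.17 (adjusted p = 1.9e-04), or -1.24 ± 0.15 (adjusted p = 4.3e-04) with 18 arrays.

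**Figure D3:**
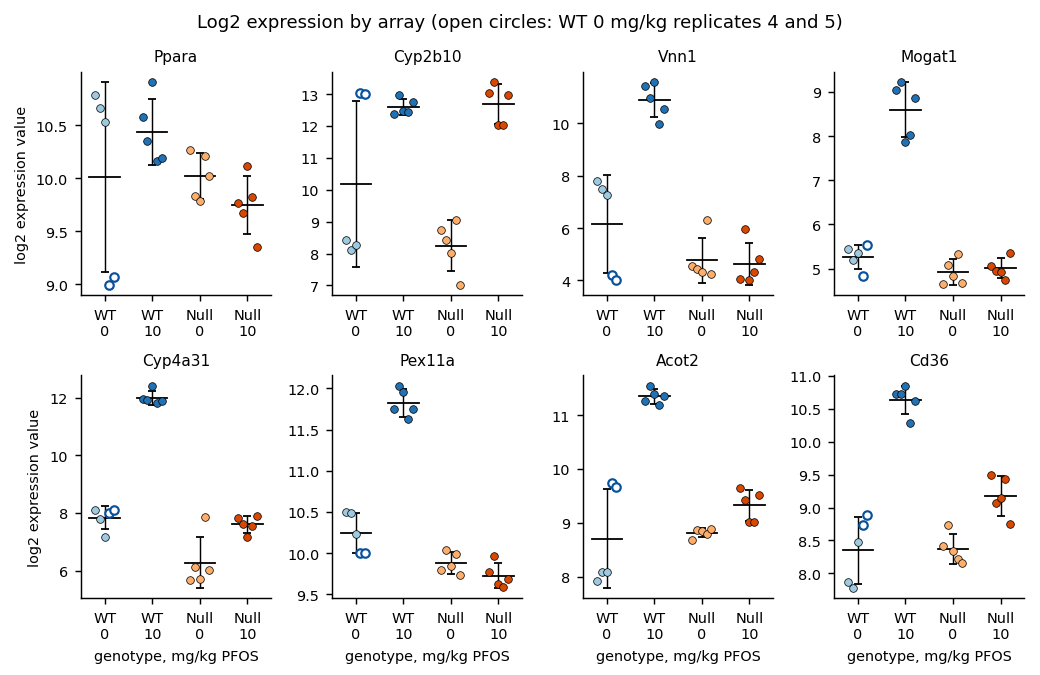
Log2 expression value (y axis) in each array of the 4 groups (x axis) for 8 genes, with open circles for WT 0 mg/kg replicates 4 and 5 and bars for the mean and SD of each group. Dosed WT arrays stand above all others for Vnn1, Mogat1, Cyp4a31, Pex11a, Acot2 and Cd36, and the open circles lie at 13.04 and 12.99 for Cyp2b10.

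As a wider count, 19 of 50 measured PPARα targets were called more negative in Null with either set, against 2.46% and 2.81% of all genes. None was called more positive. The median difference over the 50 was -0.64 with 20 arrays and -0.47 with 18, against 0.014 and 0.017 over all genes. All 5 dosed WT arrays lay above the other 15 for 37 of the 50, against 2.26% of all genes. In WT mice 37 of the 50 passed as higher after dosing and none as lower, whereas in Null mice 10 passed as higher and 3 as lower. Over all genes 5.54% and 2.79% did so in WT, and 2.74% and 4.20% in Null. With 18 arrays 35 passed as higher and 1 as lower in WT, and 16 as higher and 3 as lower in Null. The same counts over all 12156 genes were 1278 and 1104 in WT, and 524 and 607 in Null. The 19 fell to 13 without Null 0 mg/kg replicate 2, and with 18 arrays they fell to 12 without WT 0 mg/kg replicate 3. The list was written from general knowledge of PPARα with earlier results of these data in view, and it shares members with the beta-oxidation, thioesterase and lipid droplet lists.

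Further members of these lists are given by their group means. Acot8, a peroxisomal thioesterase, averaged 8.89 ± 0.22 (SD, n = 5 in each group) in WT 0, 10.18 ± 0.20 in WT 10, 8.69 ± 0.07 in Null 0 and 8.68 ± 0.22 in Null 10 mg/kg arrays, so WT values rose by 1.29 (limma adjusted p = 6.4e-07) and the Null change was -0.01 (adjusted p = 0.98). Its difference was -1.30 ± 0.16 (adjusted p = 2.8e-04) with 20 arrays and -1.15 ± 0.16 (adjusted p = 9.4e-04) with 18. Pdk4, a kinase that restrains pyruvate oxidation, averaged 6.50 ± 0.65, 8.13 ± 0.66, 6.99 ± 0.32 and 6.89 ± 0.40 in the same order, with a difference of -1.73 ± 0.43 (adjusted p = 0.036), or -2.14 ± 0.40 (adjusted p = 0.011) with 18 arrays, and it passed in 8 of the 20 fits with 1 array left out. Fabp1, the liver fatty acid binding protein gave means of 13.90 ± 0.12, 14.20 ± 0.02, 13.88 ± 0.05 and 13.75 ± 0.11, and its difference of -0.44 ± 0.09 passed with 20 arrays (adjusted p = 0.013) and with 18 (adjusted p = 0.018). Fabp2, the intestinal form, differed by -1.64 ± 0.39 (adjusted p = 0.031) with 20 arrays and by -1.40 ± 0.41 with 18, where it was not called, with Null values that fell by 1.03 (adjusted p = 0.032) and a WT change of 0.61 that did not pass (adjusted p = 0.18). Pparg, a related receptor from the nuclear receptor list, differed by -0.49 (adjusted p = 0.64) with 20 arrays and by -1.11 ± 0.26 (adjusted p = 0.025) with 18.

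Genes outside these lists were also among the most negative. Chrna2, a nicotinic receptor subunit, differed by -2.58 ± 0.42 (adjusted p = 0.0031), Fitm1, a lipid droplet protein, by -2.11 ± 0.37 (adjusted p = 0.0055), and Amn, the partner of cubilin, by -2.01 ± 0.33 (adjusted p = 0.0031). Pltp, the phospholipid transfer protein of plasma, differed by -1.75 ± 0.26 (adjusted p = 0.0017), and Serpina7, the thyroxine-binding globulin, by -1.86 ± 0.37 (adjusted p = 0.011). Chrna2, Fitm1, Amn, Pltp and Serpina7 were called with 18 arrays too, at -2.04, -1.65, -2.45, -1.66 and -1.91, and for each the 5 dosed WT arrays lay above the other 15. Rab30, a small GTPase of the Golgi, differed by -1.88 ± 0.49 (adjusted p = 0.042) with 20 arrays but by -1.19 (adjusted p = 0.057) with 18, and passed in 7 of the 20 fits with 1 array left out. The undosed Null arrays of Chrna2, Amn and Rab30 all lay below the filter limit of 5.65, so the size of their differences depends on where weak signals end.

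Respiratory chain genes showed another pattern, with lower values in dosed Null mice and little movement in WT mice. Complex I of the respiratory chain oxidises NADH at the inner mitochondrial membrane. Of its 33 measured genes, 17 were called more negative in Null, 12 with 18 arrays, against 2.46% and 2.81% of all genes. None was called more positive. The median difference was -0.39 with 20 arrays and -0.38 with 18. The mean log2 value of the 33 was 11.74 in WT 0, 11.81 in WT 10, 11.88 in Null 0 and 11.56 in Null 10 mg/kg arrays. The Null controls thus averaged above the WT controls. In Null mice 24 of the 33 passed as lower after dosing, against 4.20% of all genes, and none as higher, while in WT mice 1 passed as higher and none as lower. With 18 arrays 24 passed as lower in Null, against 607 of all 12156 genes, and none passed in WT. The 17 became 8 without Null 0 mg/kg replicate 2 and 21 without Null 10 mg/kg replicate 1, and with 18 arrays the 12 became 4 without WT 0 mg/kg replicate 3 and 19 without Null 10 mg/kg replicate 1.

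Ndufa5 read 10.19, 10.23, 10.03, 9.91 and 10.15 in WT mice at 0 mg/kg and 10.03, 10.30, 10.47, 10.22 and 10.17 at 10 mg/kg, and these groups overlapped. Null mice gave values of 10.23, 10.70, 10.55, 10.61 and 10.61 at 0 mg/kg and 9.49, 10.01, 9.78, 9.58 and 9.89 at 10 mg/kg, with every dosed value below every control value. Null controls also tended to be higher than WT controls, by 0.44 ± 0.11 (adjusted p = 0.064). The difference in response was -0.93 ± 0.15 (adjusted p = 0.0038), or -0.88 ± 0.17 (adjusted p = 0.011) with 18 arrays. The paper reports that real-time PCR in a separate set of mice did not bear out lower Ndufa5 in treated Null mice. It regards such small changes as hard to detect by that assay.

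Ndufb3 was the only called complex I gene with dosed WT arrays above and dosed Null arrays below all others. It read 10.74, 10.68, 10.68, 10.46 and 10.67 in WT mice at 0 mg/kg and 10.84, 10.89, 11.04, 10.84 and 10.90 at 10 mg/kg. In Null mice it read 10.55, 10.76, 10.70, 10.70 and 10.58 at 0 mg/kg and 10.15, 10.37, 10.16, 10.14 and 10.45 at 10 mg/kg. The control groups of both genotypes overlapped, and the difference was -0.66 ± 0.11 (adjusted p = 0.0030), or -0.60 ± 0.11 (adjusted p = 0.0094) with 18 arrays.

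The other respiratory complexes gave 11 called genes of 37, all more negative in Null, of which 7 belong to ATP synthase (Atp5e, Atp5g2, Atp5j, Atp5j2, Atp5k, Atp5l and Atp5o). The share over all genes was 2.46%, and 2.81% with 18 arrays. The 11 became 3 without Null 0 mg/kg replicate 2 and 18 without Null 10 mg/kg replicate 1, and with 18 arrays 4 of the 37 were called, none without WT 0 mg/kg replicate 1 and 11 without Null 10 mg/kg replicate 1. The median difference over the 37 was -0.25 with 20 arrays and -0.23 with 18. Their mean log2 value was 12.61 in WT 0, 12.65 in WT 10, 12.70 in Null 0 and 12.47 in Null 10 mg/kg arrays. In Null mice 19 of the 37 passed as lower after dosing, against 4.20% of all genes, and in WT mice none passed in either direction.

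Mitochondrial ribosomal proteins, which translate the proteins encoded in mitochondrial DNA, had differences below 0 for all 74 measured genes with either set, against 5700 and 5727 of all 12156 genes. With 20 arrays 20 of the 74 were called, and with 18 arrays 22, against 2.46% and 2.81% of all genes. All members were read on the same arrays, so the shared sign is not 74 separate observations. Their median change was 0.18 in WT and -0.17 in Null, against a median near 0 over all genes. Their mean log2 value was 9.59 in WT 0, 9.77 in WT 10, 9.70 in Null 0 and 9.54 in Null 10 mg/kg arrays. Mrps18c read 9.92, 10.05, 10.04, 10.04 and 10.10 in WT mice at 0 mg/kg and 9.99, 10.21, 10.16, 10.06 and 10.06 at 10 mg/kg, with overlap. The Null arrays gave 10.05, 10.26, 10.30, 10.22 and 10.15 at 0 mg/kg and 9.71, 9.93, 9.84, 9.74 and 9.84 at 10 mg/kg, without overlap, and the difference was -0.44 ± 0.09 (adjusted p = 0.012), or -0.47 ± 0.10 (adjusted p = 0.018) with 18 arrays. The count of 20 became 5 without Null 0 mg/kg replicate 2 and 34 without Null 10 mg/kg replicate 1, and with 18 arrays the 22 became 2 without WT 0 mg/kg replicate 1 and 43 without Null 10 mg/kg replicate 1.

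**Figure D4:**
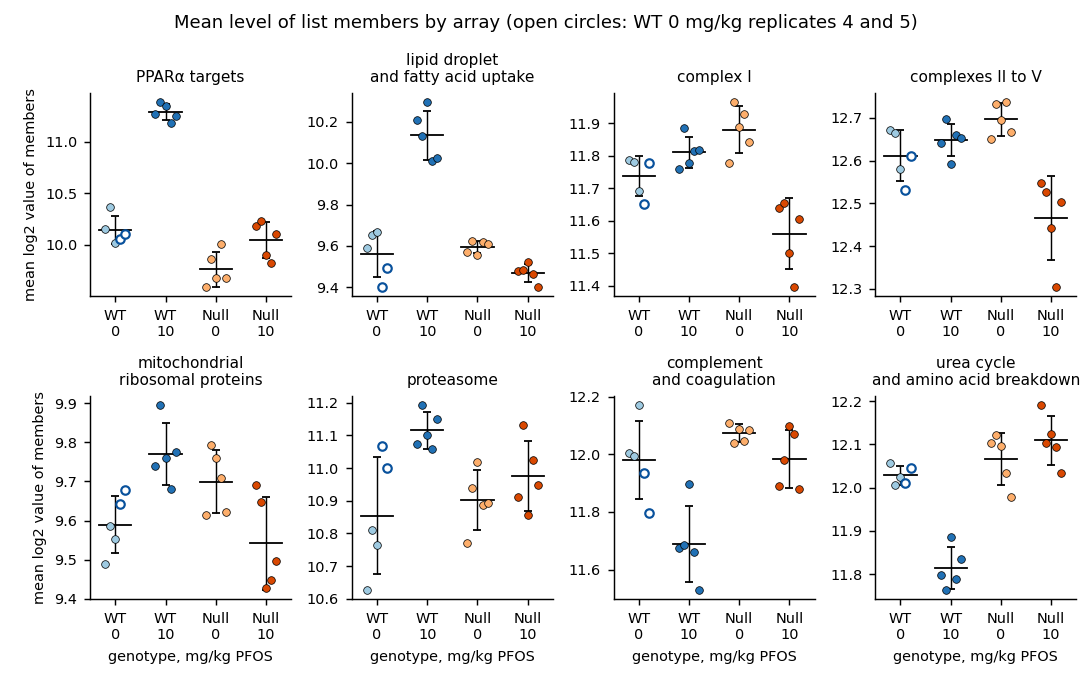
Mean log2 value of the measured members of each gene list (y axis) in every array of the 4 groups (x axis), with open circles for WT 0 mg/kg replicates 4 and 5 and bars for the mean and SD. The PPARα targets go from 10.02 to 10.37 in control WT arrays to 11.18 to 11.38 in dosed WT arrays, and complex I spans 11.40 to 11.66 in dosed Null arrays and 11.65 to 11.97 in the others.

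Proteasome genes encode the protease that degrades ubiquitinated proteins, and here the 2 doubted arrays decided most of the calls. Of 37 genes, Psmb3 alone was called with 20 arrays, and 8 were called with 18 (Psma1, Psma2, Psma6, Psma7, Psmb3, Psmb6, Psmb7 and Psmd4), all more negative in Null. These were 2.7% and 21.6% of the list, against 2.46% and 2.81% of all genes, so the 20-array share was near that of all genes. Psmb3 read 11.15, 11.42, 11.27, 11.49 and 11.47 in WT mice at 0 mg/kg and 11.79, 11.88, 11.67, 11.58 and 11.72 at 10 mg/kg. Null values were 11.24, 11.41, 11.62, 11.40 and 11.43 at 0 mg/kg and 11.44, 11.45, 11.14, 11.25 and 11.25 at 10 mg/kg. WT groups did not overlap and Null groups did, and the difference was -0.48 ± 0.12 (adjusted p = 0.039), or -0.56 ± 0.13 (adjusted p = 0.024) with 18 arrays. The 20-array count of 1 became 0 without Null 0 mg/kg replicate 2 and 5 without WT 0 mg/kg replicate 5, and the 18-array count of 8 became 0 without WT 0 mg/kg replicate 1 and 13 without Null 10 mg/kg replicate 1.

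The genes more positive in Null were led by Got1, the cytosolic aspartate aminotransferase. It read 12.61, 12.10, 12.60, 12.77 and 12.60 in WT mice at 0 mg/kg and 11.38, 10.37, 11.80, 11.29 and 11.66 at 10 mg/kg. Its values in Null mice were 12.10, 12.51, 12.77, 12.29 and 11.98 at 0 mg/kg and 13.01, 12.66, 12.52, 12.72 and 12.52 at 10 mg/kg. The dosed WT arrays lay below all others, and the WT values fell by 1.24 ± 0.21 (adjusted p = 0.0012), whereas the Null change of 0.36 ± 0.21 did not pass (adjusted p = 0.33). The difference was 1.59 ± 0.30 (adjusted p = 0.0074), or 1.49 ± 0.33 (adjusted p = 0.021) with 18 arrays.

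Amino acid breakdown and the urea cycle gave 4 called genes of 37, Asl, Cps1, Got1 and Tat, all more positive in Null, and the same list without Tat with 18 arrays. Over all genes 0.428% and 0.773% were called more positive in Null. Cps1, which makes the carbamoyl phosphate that enters the urea cycle, read 13.62, 13.62, 13.59, 13.41 and 13.50 in WT mice at 0 mg/kg and 13.18, 13.18, 13.32, 13.31 and 13.31 at 10 mg/kg. Null mice gave values of 13.53, 13.45, 13.58, 13.53 and 13.40 at 0 mg/kg and 13.53, 13.56, 13.52, 13.51 and 13.52 at 10 mg/kg. The fall in dosed WT arrays was small but without overlap, and the difference was 0.32 ± 0.08 (adjusted p = 0.040), or 0.38 ± 0.08 (adjusted p = 0.019) with 18 arrays. Cps1 passed in only 6 of the 20 fits with 1 array left out. The median difference over the 37 genes was 0.19 with 20 arrays and 0.22 with 18. In WT mice 10 of the 37 passed as lower after dosing, against 2.79% of all genes. The list's 4 calls became 2 without Null 0 mg/kg replicate 3, and the 3 with 18 arrays became 0 without WT 0 mg/kg replicate 1.

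Complement and coagulation factors, secreted by hepatocytes, gave 4 called genes of 43 (C8b, F7, Masp1 and Serpind1) with 20 arrays and F11 besides with 18, all more positive in Null. The shares over all genes were 0.428% and 0.773%. Masp1 was called by the probe set that read it, and its other retained probe sets, at 0.18, 0.07 and -0.005 with 20 arrays, did not pass with either set. C8b, a subunit of the membrane attack complex, read 12.11, 12.02, 12.05, 11.83 and 11.76 in WT mice at 0 mg/kg and 11.21, 11.21, 11.48, 11.38 and 11.10 at 10 mg/kg. In Null mice it read 12.30, 11.68, 11.97, 11.98 and 11.99 at 0 mg/kg and 11.81, 12.04, 11.98, 12.28 and 11.96 at 10 mg/kg. Dosed WT arrays lay below all others, Null groups overlapped, and the difference was 0.71 ± 0.15 (adjusted p = 0.017), or 0.82 ± 0.16 (adjusted p = 0.012) with 18 arrays. In WT mice 12 of the 43 passed as lower after dosing, 23 with 18 arrays, and in Null mice 2 and 4 did. Over all 12156 genes, 339 and 1104 did in WT mice, and 511 and 607 in Null mice. The median difference over the 43 was 0.21 with 20 arrays and 0.25 with 18, the 4 calls became 2 without Null 0 mg/kg replicate 2 and 6 without Null 10 mg/kg replicate 1, and the 5 with 18 arrays became 2 without WT 0 mg/kg replicate 3 and 11 without WT 10 mg/kg replicate 3.

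F7, coagulation factor VII, the other gene with a direct repeat in its promoter, averaged 11.49 ± 0.11 (SD, n = 5 in each group) in WT 0, 10.94 ± 0.16 in WT 10, 11.62 ± 0.10 in Null 0 and 11.58 ± 0.10 in Null 10 mg/kg arrays. It fell by 0.54 in WT (limma adjusted p = 3.3e-04) and its Null change was -0.04 (adjusted p = 0.82). The difference was 0.50 ± 0.11 (adjusted p = 0.023), or 0.56 ± 0.12 (adjusted p = 0.022) with 18 arrays. Asl, argininosuccinate lyase of the urea cycle, differed by 0.62 ± 0.14 (adjusted p = 0.019), or 0.55 ± 0.15 (adjusted p = 0.048) with 18 arrays. Its Null values rose by 0.32 with an adjusted p of 0.0497, just under the threshold, and the WT change of -0.30 did not pass (adjusted p = 0.060). Tat, tyrosine aminotransferase, differed by 0.96 ± 0.22 (adjusted p = 0.026) with 20 arrays and by 0.89 ± 0.25 (adjusted p = 0.060) with 18. Outside the lists, Cyp2c70, which hydroxylates bile acids in the mouse, averaged 13.11 ± 0.26, 12.37 ± 0.08, 12.71 ± 0.27 and 12.77 ± 0.23 in the same group order, and its difference was 0.80 ± 0.19 (adjusted p = 0.027), or 0.99 ± 0.18 (adjusted p = 0.0091) with 18 arrays.

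Hsd3b5, a male-biased hydroxysteroid dehydrogenase of the liver, had the largest positive difference among genes called with 18 arrays. It read 11.33, 11.97, 11.51, 8.18 and 10.68 in WT mice at 0 mg/kg and 6.04, 5.37, 6.53, 9.24 and 5.88 at 10 mg/kg. The Null arrays gave 12.54, 11.36, 11.52, 12.14 and 10.88 at 0 mg/kg and 8.65, 9.93, 10.97, 11.21 and 11.34 at 10 mg/kg. WT replicate 4 at 0 mg/kg was lower than WT replicate 4 at 10 mg/kg, so these groups overlapped with 20 arrays and not with 18. The difference was 2.85 ± 1.01 (adjusted p = 0.16) with 20 arrays and 3.72 ± 0.93 (adjusted p = 0.036) with 18, and WT values fell by 4.12 ± 0.72 (adjusted p = 0.0015) with 20. Meg3, a noncoding RNA, was the reverse case by the probe set that read it, with 1.52 ± 0.36 (adjusted p = 0.026) with 20 arrays and 1.46 (adjusted p = 0.054) with 18. Among its other retained probe sets, those with differences of 1.66 (limma adjusted p = 0.031) and 1.91 (adjusted p = 0.047) passed with 18 arrays, and the rest did not.

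Some lists gave few or no called differences. Over all 12156 genes 2.89% with 20 arrays and 3.58% with 18 were called. An unadjusted p under 0.05 was held by 1932 and 2328 of them. By limma none of 20 cholesterol synthesis genes was called with either set (1 and 0 at an unadjusted p under 0.05, and 0 by the methods' t-test with 20 arrays), but 2 were without WT 0 mg/kg replicate 2, and their median difference was 0.30 with 20 arrays and 0.04 with 18, while 9 of the 20 passed as higher in dosed Null mice (10 with 18 arrays) and 2 in dosed WT mice (9 with 18 arrays). Lss, lanosterol synthase, had a difference of 0.60 ± 0.35 (adjusted p = 0.46) with 20 arrays and 0.14 (adjusted p = 0.85) with 18. Of 33 CAR targets 1, the transporter Slco1a4, was called with 20 arrays, at 1.10 ± 0.29 (adjusted p = 0.049). This was 3.03% of the list, near the 2.89% of all genes, of which 0.428% were called more positive. By limma none was called with 18 arrays (6 at an unadjusted p under 0.05). The median over the 33 was 0.12 with 20 arrays and -0.14 with 18. Slco1a4 passed in 3 of the 20 fits with 1 array left out, and the list's count ran from 0 to 2. Leaving out the 2 arrays took the count of CAR targets higher in dosed WT mice from 5 to 23, beside 10 and 22 in dosed Null mice. Over all 12156 genes the counts higher after dosing also grew, from 673 to 1278 in WT mice and from 333 to 524 in Null mice, although no Null array was left out. By limma no NRF2 target of 25 was called with either set (1 with 20 arrays and 6 with 18 at an unadjusted p under 0.05, and 0 by the methods' t-test with 20 arrays), with medians of -0.02 and -0.26, although 3 of the 25 were called from 18 arrays without Null 10 mg/kg replicate 1. A gene that was not called is not thereby shown to respond alike, and for Cyp7a1, the rate-limiting enzyme of bile acid synthesis, the difference was 2.07 ± 0.85 (adjusted p = 0.23) with 20 arrays and 1.12 ± 0.75 (adjusted p = 0.47) with 18.

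**Figure D5:**
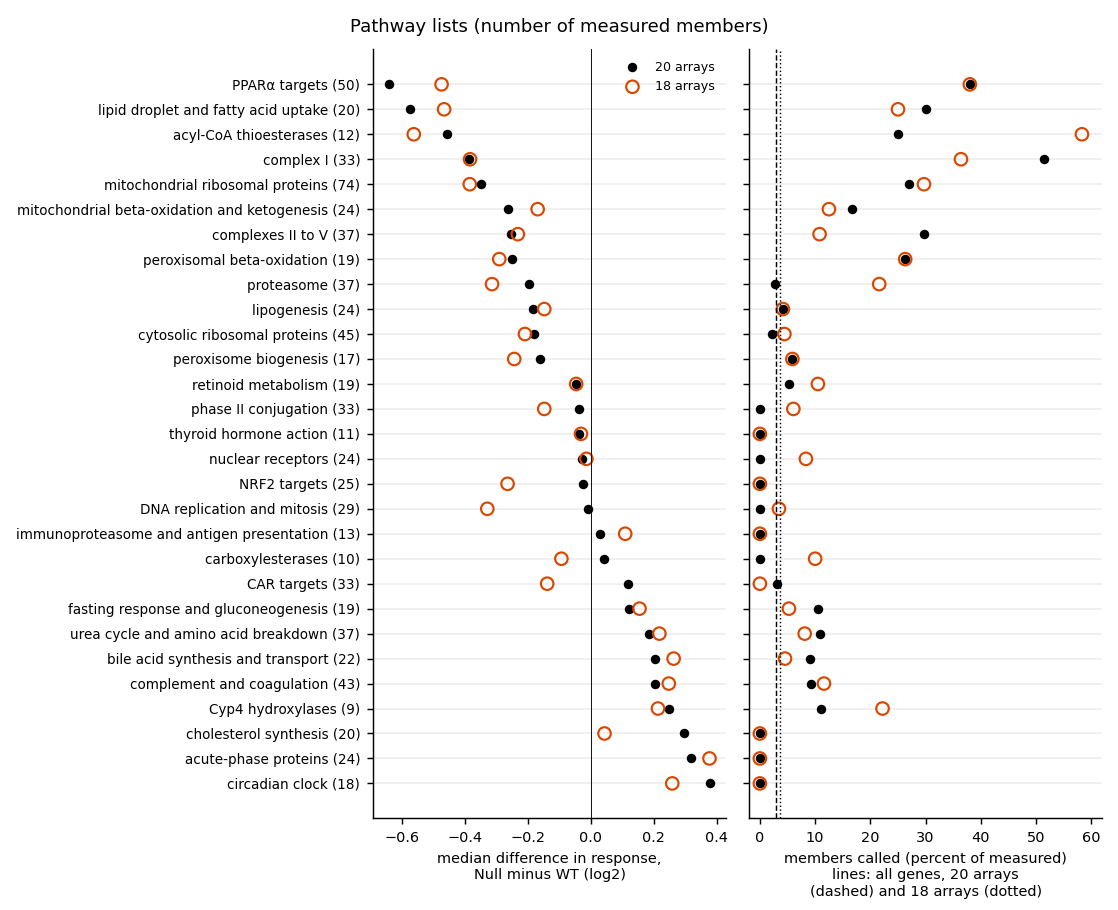
Left, the median difference in response (x axis, log2, Null minus WT) over the measured members of each gene list (y axis, number of members in brackets), with filled points for 20 arrays and open points for 18. Right, the percent of members called, with lines at 2.89 and 3.58 for all genes, and complex I and the PPARα targets have the highest shares with 20 arrays.

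Liver identity and RNA quality were read on the same arrays. Albumin (Alb) averaged 14.42, 14.39, 14.37 and 14.43 in the WT 0, WT 10, Null 0 and Null 10 mg/kg groups, and transthyretin (Ttr) 14.32, 14.27, 14.34 and 14.26. Of 10 measured hepatocyte markers, Cps1 and Tat were called more positive in Null, and Cps1 and Hnf4a with 18 arrays. Over all genes 0.428% and 0.773% were called more positive. The other retained probe sets of Hnf4a, at 0.34, 0.40 and -0.37 with 18 arrays, did not pass. In WT mice none of the 10 had a change above 0, and 3 passed as lower after dosing, against 2.79% of all genes. In Null mice 7 had changes below 0 and none passed. The mean log2 value of the 10 was 13.58 in WT 0, 13.33 in WT 10, 13.58 in Null 0 and 13.53 in Null 10 mg/kg arrays. All 10 averaged above the median of all values, and the log2 of their summed signal was 17.02 to 17.12 in WT 0, 16.88 to 16.94 in WT 10, 17.08 to 17.11 in Null 0 and 16.98 to 17.12 in Null 10 mg/kg arrays. Of 12 periportal markers 1, Cps1, was called more positive in Null with either set, against 0.428% and 0.773% of all genes. The log2 of the summed signal of the 12 was 16.09 to 16.21 in WT 10 mg/kg arrays and 16.23 to 16.43 in all others. By limma none of 19 Kupffer cell and macrophage markers was called with either set, and by the methods' t-test with 20 arrays 0 were. An unadjusted limma p under 0.05 was held by 1 and 0 of the 19, against 1932 and 2328 of all 12156 genes. Medians over the 19 were -0.30 in WT and -0.39 in Null for the change and -0.06 for the difference. The part of these markers in the amino acid and complement results was not tested. The 3' minus 5' signal of the array's control probe sets was 0.07 to 0.22 for Gapdh and 0.36 to 0.52 for actin, and Null 10 mg/kg replicate 1, whose omission raised the counts most, was the lowest of the 20 for both. In the fit with array weights that array also had the lowest weight of the 20, 0.23. What sets it apart was not tested.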

How the data were processed

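Liver RNA of WT and Null mice was hybridised to 1 array per mouse, with 5 mice in each of 6 groups. Per the labels, the authors processed the arrays by RMA, that is, background adjustment, quantile normalization and probe set summary, and they deposited log2 expression values for 45101 probe sets. Quantile normalization, applied before the probe set summary, evens out the distribution of signals between arrays, so a shift shared by most genes cannot be read. The medians of the deposited values still differed somewhat between arrays. They were 5.66 to 5.70 in WT 0, 5.62 to 5.69 in WT 10, 5.61 to 5.65 in Null 0 and 5.61 to 5.69 in Null 10 mg/kg arrays. Groups were taken from the sample labels, the table held 0 columns of other samples, and, per the study's methods, all samples were labelled and hybridised in 1 block. For arrays, their number limits the precision.

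After 64 control probe sets were left out, a probe set was retained if it exceeded 5.65, the median of the whole table, on 5 or more of the 30 arrays (24069 retained). The platform annotation names 1 gene for 34958 probe sets, several for 932 and none for 9211, and only the first were named, which gave 12156 genes. A gene was read by its retained probe set of highest mean over the 20 arrays, chosen without regard to any contrast. Group means were fitted with limma 3.58.1 (lmFit and eBayes) in R 4.3.3, with no covariates, and Benjamini-Hochberg adjustment ran over every retained probe set. SE is the moderated standard error of the limma contrast. The script was tested on simulated data with known changes.

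The comparison, the gene lists and the rule for named genes were chosen with earlier results of these data known. The rule names the 12 most negative and 12 most positive genes called with 20 arrays, the 10 of each called with 18, the 4 members of a list with the lowest p together with its called members, and 11 genes of interest. Alternatives were no filter and a stricter one, other choices of probe set, 2 rescalings, a trend with robust spread, array weights, all remaining arrays fitted together, a block on replicate number, the methods' t-test, other thresholds and leaving out each array.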

Additional observations from a re-analysis of the deposited data

Results flagged for a closer look

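The response to 10 mg/kg PFOS differed between WT and Null mice for 351 genes with 20 arrays and for 435 with 18, by limma's test of the difference itself. Single arrays were also examined for the 20 genes whose values are given array by array, 80 groups in all, and 6 had a lowest or highest array far from the rest by Dixon's criterion for 5 samples. Chance flags about 1 in 20 groups, and no explanation was tested. Among the Null controls, replicate 4 was the highest for Vnn1 (6.31), Cyp4a31 (7.85) and Decr1 (11.49), which are all PPARα targets. Dosed WT replicate 3 was the highest of its group for Cyp4a31 (12.42). In WT controls, replicate 4 was the lowest for Ndufb3 (10.46) and replicate 2 the lowest for Got1 (12.10).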

How the results depend on the processing

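Counts of called genes moved more than their direction did. With no filter on weak probe sets 219 genes were called with 20 arrays (193 more negative in Null and 26 more positive) and 246 with 18 (202 and 44). With array weights they were 824 (581 and 243) and 1462 (804 and 658). A difference of at least 1.5-fold left 156 (132 and 24). The count more positive in Null was 31 with arrays shifted to the same median, 99 by the methods' t-test and 83 by limma at the unadjusted limit, 94 without the 2 doubted arrays, and 153 with all 28 remaining arrays in that fit. WT mice alone had 2382 genes called without those 2 arrays, against 1012 with them. With 1 array left out, counts from 20 arrays ran from 163 to 663 (146 to 518 more negative, 17 to 145 more positive), and from 18 arrays from 131 to 1040 (101 to 683 and 27 to 357). The median difference remained below 0 for PPARα targets, complex I, complexes II to V, mitochondrial ribosomal proteins and the proteasome and above 0 for complement and coagulation under each alternative whose list medians were computed, which leave out those of fits from 18 arrays less 1. That of CAR targets changed sign, from -0.14 to 0.22. Uqcrq reversed to 0.033 without probe sets marked _x_at or _s_at, and Brca1 to -0.19 with no filter. The cause was not tested.

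The labels tie replicate numbers to no shared source. Deviations of same-numbered arrays correlated between -0.23 and 0.36, with medians per number of -0.09 to 0.19, so not every pair passed 0.1 and the numbers were not taken to pair the arrays, although 9 of 20 correlated best with their own number, a hint from the data. With the replicate block 446 genes were called (372 and 74).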
